A study of Mus musculus with 15 samples.

Results

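The 8 genes described here encode liver-enriched transcription factors: Hnf4a, Foxa1, Foxa2, Foxa3, Onecut1, Onecut2, Nr1h4 and Nr5a2. They were chosen by symbol, and every probe set annotated to 1 of these symbols alone was taken. This gave 17 of 34945 probe sets, and 8 of 18193 genes. Of the 8 genes, 4 had 1 probe set, Onecut1 had 2, Onecut2 had 3, and Hnf4a and Nr5a2 had 4 each. Each gene is represented by its brightest probe set on average. All 8 symbols were matched by gene ID to the RefSeq table.

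Expression was measured on Affymetrix arrays in 15 mouse samples, 3 in each of 5 groups, as log2 values made by robust multi-array average (RMA). MSC, a name the labels leave unexpanded and which in this field usually stands for mesenchymal stromal or stem cells, were grown in low glucose DMEM with 10% serum (FBS). The log2 sum of 12 stromal markers was 15.7 to 16.1 in them and 9.03 to 11.6 in Hepatocyte. By limma (at least 2-fold, adjusted p below 0.05), 9 of the 12 were lower in Hepatocyte than in MSC (18.3% of all genes were). Eng was higher, by 1.53 log2 units (11.8% of all genes were higher), and Thy1 and Nt5e did not pass. HD28 cells were made from MSC in IMDM, first with hepatocyte growth factor (HGF, 20 ng/ml), basic fibroblast growth factor (bFGF, 10 ng/ml) and nicotinamide (0.61 g/L) for 7 days, and then with oncostatin M (20 ng/ml), dexamethasone (1 µmol/L) and ITS+ premix. Cells labelled dHD28 are HD28 cells moved back to the MSC medium. Hepatocyte samples are mouse primary hepatocytes grown in DMEM/F12 with 10% serum. MLC were derived from primary hepatocytes in the MSC medium with hTGF-β1, stepped down from 10 to 5 and 1 ng/ml until day 28, and were then kept in the MSC medium. The labels name no strain, age, sex or passage. They do not say whether the replicates are separate cultures or animals. The p-values therefore cover only the spread among these samples, which may be technical.

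These factors act as a network in liver. FOXA proteins (HNF3) open chromatin at liver enhancers and are known as pioneer factors. HNF4A, a nuclear receptor, holds the mature hepatocyte programme of apolipoprotein, clotting and metabolic genes in place. ONECUT1 (HNF6) and ONECUT2 act in liver and bile duct development. NR1H4 (FXR) is the bile acid receptor, and NR5A2 (LRH-1) works beside it in bile acid and cholesterol metabolism. HNF1 and HNF4 factors and the ONECUT factors are known to bind the promoters of each other's genes.

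Because such cross-regulation runs through short promoter elements, the promoters of the members were searched for the core motifs of these factors. RefSeq (GRCm38.p6) gave 11 windows of 300 bases, from 250 before to 50 after a transcription start, for 7 members, all but Onecut2. The windows below show the 250 bases before the start for the liver nuclear receptors with a match, written 5′ to 3′ along the gene, with matches in capitals. The 2 Hnf4a starts lie 40298 bases apart on chromosome 2, and Hnf4a is known for an upstream and a downstream promoter, of which adult liver uses the downstream one. They are chr2:163506607-163506856 (plus strand), chr2:163546905-163547154 (plus strand), chr10:89506659-89506908 (minus strand) and chr1:136960449-136960698 (minus strand).
Hnf4a, first window: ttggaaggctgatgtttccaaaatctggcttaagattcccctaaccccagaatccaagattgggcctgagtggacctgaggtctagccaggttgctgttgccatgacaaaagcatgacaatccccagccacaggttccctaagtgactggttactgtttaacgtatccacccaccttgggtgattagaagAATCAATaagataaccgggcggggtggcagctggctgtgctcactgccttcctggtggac
Hnf4a, second window: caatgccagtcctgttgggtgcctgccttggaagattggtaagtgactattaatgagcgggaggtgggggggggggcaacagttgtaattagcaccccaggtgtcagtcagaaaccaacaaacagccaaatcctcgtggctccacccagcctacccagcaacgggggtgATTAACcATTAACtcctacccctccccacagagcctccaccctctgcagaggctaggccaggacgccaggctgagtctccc
Nr1h4: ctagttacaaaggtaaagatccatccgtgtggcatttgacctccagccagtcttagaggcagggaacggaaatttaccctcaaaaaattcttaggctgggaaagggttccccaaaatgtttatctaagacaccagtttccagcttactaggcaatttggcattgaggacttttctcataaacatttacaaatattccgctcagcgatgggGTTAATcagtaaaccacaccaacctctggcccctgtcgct
Nr5a2, first window: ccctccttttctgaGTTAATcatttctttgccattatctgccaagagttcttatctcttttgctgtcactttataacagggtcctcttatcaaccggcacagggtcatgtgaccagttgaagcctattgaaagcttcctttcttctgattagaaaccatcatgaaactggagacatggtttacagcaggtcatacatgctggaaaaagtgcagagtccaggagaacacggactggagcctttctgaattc

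Positions are counted with -1 as the base just before the start. The first Hnf4a window holds the ONECUT core ATTGATT at -60 to -54 on the minus strand, where it reads AATCAAT. The second holds the HNF1 core GTTAAT at -81 to -76 and again at -74 to -69, both on the minus strand (ATTAAC). The Nr1h4 window has GTTAAT at -40 to -35, and the first Nr5a2 window has it at -236 to -231. Over both strands, GTTAAT occurred in 4 of the 11 member windows and in 7.1% of all 32851 windows of this length. ATTGATT occurred in 2 windows (2.86% of all), the other being that of Foxa2. The FOXA core TGTTTAC occurred in 1, that of Foxa1 (3.65% of all). CAAGGTCA for LRH-1 (1.56% of all), CAAAGTCCA for HNF4 (0.475%) and the inverted repeat motif of FXR (0.0396%) occurred in none of the 11, which says only that these letters are not in these windows. In all, 7 windows of 5 members held a match. None of the motif spans overlapped, the motifs were chosen with the expression values known, and windows of 1 gene are not independent.

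All 8 genes were high in primary hepatocytes and low in the 9 MSC, dHD28 and MLC arrays, and the 3 HD28 arrays were split. The moderated F test of limma over the 5 groups, with Benjamini-Hochberg adjustment over all genes, found a difference for 8 of 8 genes (46.8% of all genes), with adjusted p from 1.03e-07 for Nr1h4 to 0.00323 for Onecut1. In each of the 8 the Hepatocyte mean was highest and the HD28 mean came next. With HD28 replicate 3 left out, the HD28 mean stayed above the MSC, dHD28 and MLC means in 4 genes (Onecut1, Onecut2, Nr1h4 and Nr5a2) and was below all 3 in Foxa1 and Foxa3. Against the highest of those means, Onecut2 was then at 4.56 against 3.58 and Nr1h4 at 5.09 against 4.64. Onecut1 (4.03 against 4.01) and Nr5a2 (4.89 against 4.83) were barely above it. Below HD28, the MSC, dHD28 and MLC means came in no shared order, and their tested differences were all short of the threshold. In bulk samples such as these, fewer cells of a type and less RNA per cell cannot be told apart.

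**Figure D1:**
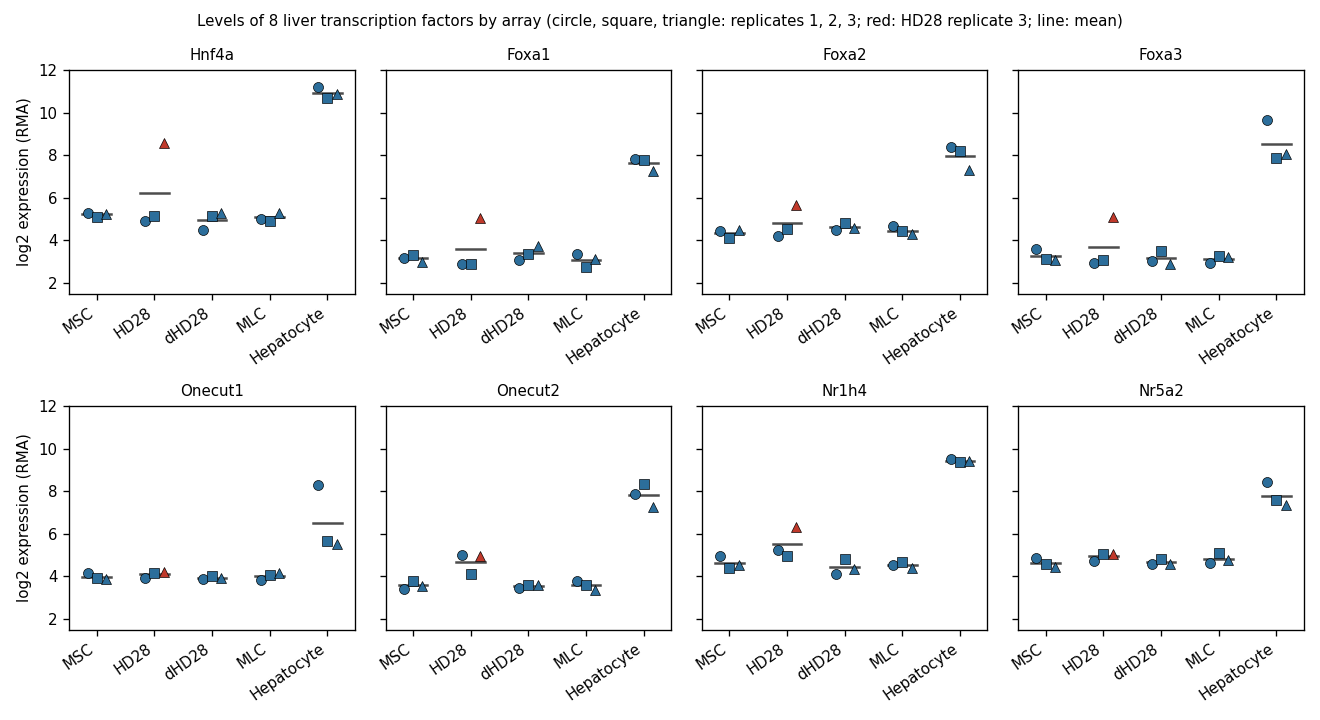
Log2 expression (RMA, y axis) of the probe set that stands for each of the 8 genes, by group (x axis). Points are single arrays (circle, square and triangle for replicates 1, 2 and 3), lines are means of 3, and HD28 replicate 3 is red. In each panel the 3 Hepatocyte arrays lie above the other 12, and HD28 replicate 3 is the highest HD28 array by at least 1 log2 unit in 5 panels.

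Primary hepatocytes and MSC mark the ends of the path that the study's samples follow. Of the 8 genes, 8 were higher in Hepatocyte than in MSC by limma (at least 2-fold, with an adjusted p below 0.05), which 11.8% of all genes were. The median log2 difference was 4.35 against 0.04 over all genes. In 8 of 8 the arrays of the groups did not overlap (24.7% of all genes in this direction), and 16 of the 17 probe sets passed (10.1% of probe sets). The exception was Nr5a2 1449707_at, which averaged 3.55 in Hepatocyte and 3.28 in MSC, under the lower quartile of the arrays in all 5 groups. The 12 measured hepatocyte markers were all higher in these Hepatocyte samples than in MSC, and 11 of 12 Kupffer cell and macrophage markers and 9 of 10 liver endothelial markers were as well. The part of such other cells in the hepatocyte levels of the 8 genes was not tested.

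Hnf4a (1427001_s_at) read 5.31, 5.10 and 5.24 in MSC replicates 1 to 3, 4.92, 5.13 and 8.58 in HD28, 4.48, 5.14 and 5.30 in dHD28, 5.03, 4.93 and 5.30 in MLC, and 11.19, 10.68 and 10.88 in Hepatocyte. Apart from HD28 replicate 3, the MSC, HD28, dHD28 and MLC arrays stayed far below every hepatocyte array, and their values overlapped. Hepatocyte exceeded MSC by 5.70 ± 0.69 on the log2 scale (SE, n = 3 per group, 52.0-fold, limma adjusted p = 1.49e-05). The other 3 probe sets of the gene gave 1.98, 5.78 and 7.41. The model takes its spread from all 5 groups, so this SE also carries that of HD28. The SD was 0.108 in MSC, 0.261 in Hepatocyte and 2.05 in HD28. Without HD28 replicate 3 the limma adjusted p was 2.13e-10.

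The pioneer factors Foxa1, Foxa2 and Foxa3 were each higher in Hepatocyte. Foxa1 read 3.16, 3.33 and 3.00 in MSC and 7.81, 7.79 and 7.25 in Hepatocyte, a difference of 4.45 ± 0.45 (adjusted p = 3.28e-06). Foxa2 read 4.42, 4.11 and 4.49 in MSC and 8.39, 8.19 and 7.32 in Hepatocyte, 3.62 ± 0.33 apart (adjusted p = 1.55e-06). Foxa3, known for its part in glucose homeostasis, read 3.59, 3.12 and 3.06 in MSC against 9.64, 7.87 and 8.04 in Hepatocyte, a log2 difference of 5.26 ± 0.53 (adjusted p = 2.95e-06). In Foxa3 the first hepatocyte array stood well above the other two, whereas in Foxa1 and Foxa2 the third was lowest. The MSC means of Foxa1 and Foxa3 lay under the lower quartile of their arrays, so those folds are approximate.

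The ONECUT pair differed in how even the hepatocyte arrays were. Onecut2 (1440005_at) read 3.40, 3.77 and 3.56 in MSC and 7.85, 8.35 and 7.24 in Hepatocyte, 4.24 ± 0.27 apart (adjusted p = 7.76e-08), and its other probe sets gave 5.08 and 5.90. Onecut1 (1450252_at) read 4.15, 3.92 and 3.86 in MSC and 8.30, 5.67 and 5.51 in Hepatocyte, with a difference of 2.52 ± 0.52 (adjusted p = 0.0013), the smallest of the 8. Its second probe set, 1421447_at, read 9.11, 6.45 and 4.24 in the hepatocytes and 2.66 to 2.92 in MSC, so it was spread still wider. Every hepatocyte array was above every MSC array in both.

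The bile acid receptor gene Nr1h4 and its partner Nr5a2 followed. Nr1h4 read 4.94, 4.41 and 4.56 in MSC and 9.50, 9.37 and 9.41 in Hepatocyte, 4.79 ± 0.30 apart (adjusted p = 6.03e-08). Nr5a2 (1449706_s_at) read 4.86, 4.59 and 4.45 in MSC and 8.45, 7.56 and 7.34 in Hepatocyte, 3.15 ± 0.25 apart (adjusted p = 3.76e-07), with 5.55 and 4.77 at 2 further probe sets. The Nr1h4 hepatocyte arrays spanned 0.13 log2 units, the least of the 8 genes.

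HD28 against MSC asks what the hepatogenic medium did to these genes. Of the 8 genes, 1 rose, Onecut2, where 3.24% of all genes rose, and 2 had an unadjusted p under 0.05. The other 7 did not pass, with log2 differences from 0.12 (Onecut1) to 0.99 (Hnf4a). Their widest 95% interval, that of Hnf4a, ran from -0.50 to 2.48. The median over the 8 was 0.46 with all arrays and 0.05 without HD28 replicate 3, against -0.08 over all genes with all arrays. HD28 replicate 3 stood apart for most members. Without it the differences were -0.19 for Hnf4a, -0.27 for Foxa1, -0.24 for Foxa3, 0.04 for Foxa2, 0.06 for Onecut1 and 0.26 for Nr5a2, so those of Hnf4a, Foxa1 and Foxa3 changed sign.

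Onecut2 read 4.98, 4.13 and 4.97 in HD28, against 3.38 to 3.77 in the 9 MSC, dHD28 and MLC arrays. Here replicate 3 was no higher than replicate 1, and no HD28 array overlapped the 9. Over MSC alone, 10.7% of all genes did not overlap in this direction. The rise over MSC was 1.12 ± 0.27 log2 units (2.17-fold, limma adjusted p = 0.018). In the other probe sets, 1444980_at read 4.29, 3.61 and 4.88 against 2.91 to 3.34 in the 9 arrays, and 1460044_at read 4.05, 3.15 and 4.83 against 2.28 to 2.87. In 3 of 17 probe sets, all of Onecut2, the 3 HD28 arrays lay above all 9 (6.98% of all probe sets), and both HD28 replicates 1 and 2 did so in the same 3. The rises at the probe-set level were 1.12, 1.18 and 1.54, and these were the 3 of 17 probe sets that passed (2.71% of probe sets). The MSC, dHD28 and MLC means of 1444980_at and 1460044_at lay under the lower quartile of their arrays, so the sizes at these probe sets are approximate.

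The call on Onecut2 was close to the threshold. Without HD28 replicate 3 the rise was 0.98 with an adjusted p of 0.069, and 0 of 8 genes passed by limma (2.7% of all genes rose then). It was 0.98 (adjusted p = 0.0709) without HD28 replicate 1 and 1.03 (adjusted p = 0.0722) without MSC replicate 1. Probe set 1460044_at still passed without HD28 replicate 3, at 1.13 (limma adjusted p = 0.0291). Between arrays of high poly-A spike-in signal, which comes from control RNAs added to a sample before labelling, the difference was 0.74 (1 array against 1), and between those of low signal it was 1.31 (2 against 2).

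Nr1h4 read 5.24, 4.94 and 6.31 in HD28, 0.86 ± 0.30 above MSC (limma adjusted p = 0.0861), and 0.45 above it without replicate 3. Without HD28 replicate 2, the lowest of the 3, it was 1.14 above MSC and passed (adjusted p = 0.037), which made 2 called genes. Within the high spike-in class Nr1h4 in HD28 was level with MSC (1 array against 1), and within the low class they differed by 1.29 (2 against 2). The high class holds HD28 replicate 2 alone and the low class holds replicates 1 and 3. These differences therefore do not separate the spike-in class from the array that stands apart. Within the low class, HD28 replicate 1 read 5.24, against 4.41 and 4.56 in MSC replicates 2 and 3. Nr5a2 read 4.74, 5.05 and 5.07 in HD28 at 1449706_s_at, overlapping MSC. At 1456521_at it read 4.21, 4.59 and 6.72, against 3.79 to 4.23 in MSC, and at 1420410_at 3.58, 4.64 and 5.27, against 3.29 to 3.79. In both, HD28 replicates 2 and 3 lay above all 9 MSC, dHD28 and MLC arrays, and replicate 1 did not. Neither passed, at 1.18 (limma adjusted p = 0.193) and 0.92 (adjusted p = 0.125), and without replicate 3 they were at 0.40 and 0.54. At 1456521_at replicate 3 was 2.13 log2 units above the higher of the other HD28 arrays.

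**Figure D2:**
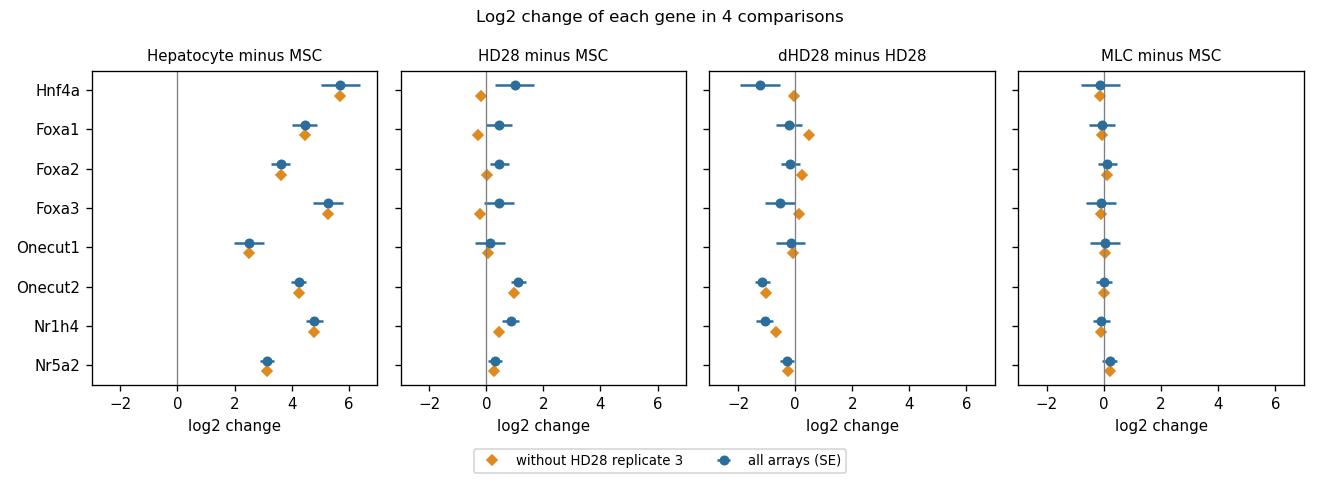
Log2 change (x axis) of each of the 8 genes (y axis) in 4 comparisons, from the limma model over all arrays with its SE (circles with bars) and without HD28 replicate 3 (diamonds). Hepatocyte minus MSC lies between 2.52 and 5.70 for all 8, MLC minus MSC lies around 0, and in the HD28 panels the circle and the diamond of Hnf4a are furthest apart.

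HD28 replicate 3 held signal of most members that the other 2 HD28 arrays lacked. It was at least 1 log2 unit above both of them in 5 of 8 genes (3.41% of all genes), Hnf4a, Foxa1, Foxa2, Foxa3 and Nr1h4, and in 8 of 17 probe sets (2.55% of probe sets). Hnf4a 1427000_at read 7.70 there, against 2.05 and 2.33 in HD28 replicates 1 and 2 and 2.05 to 2.52 in the 9 other arrays. Foxa1 read 5.05 against 2.89 and 2.89, and Foxa3 read 5.07 against 2.93 and 3.10. Foxa2 read 5.65 against 4.22 and 4.54. The Onecut1 probe sets were close to the other arrays. In it 1450252_at read 4.23 against 3.91 and 4.15, and 1421447_at read 2.80 against 2.50 and 2.75.

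On the linear scale, the signal of HD28 replicate 3 above the mean of HD28 replicates 1 and 2 can be given as a share of the hepatocyte mean above the same base. For Hnf4a this share was 18.3% at 1427001_s_at and 25.3% at 1427000_at, but 4.18% at 1421983_s_at and 2.62% at 1450447_at. It was 13.7% for Foxa1, 12.8% for Foxa2, 7.14% for Foxa3 and 6.94% for Nr1h4. Probe sets of 1 gene thus gave unlike shares, by the most in Hnf4a. For Nr5a2 it was 1.99%, 11.6% and 6.88% at the 3 probe sets that were high in hepatocytes, for Onecut2 3.85%, 5.15% and 5.12%, and for Onecut1 3.25% and 0.911%. Over the 671 genes called higher in Hepatocyte than in MSC, with a hepatocyte mean at least 3 log2 units above HD28 replicates 1 and 2, the median share was 13.2%, with quartiles of 9.61% and 17.8%. Of the 8 members 6 met this rule of 3 log2 units. Onecut1 (6.49 in Hepatocyte against 4.03) and Nr5a2 (7.78 against 4.89) did not, at the probe sets that stand for the genes. Their shares are therefore outside the selection of the 671 genes. The hepatocyte mean in the shares of the members leans on Hepatocyte replicate 1 for some genes. Against Hepatocyte replicates 2 and 3 alone, Onecut1 had shares of 7.53% and 2.40%, and against replicate 1 alone 0.801% and 0.152%. Foxa3 had 10.7% and 3.24% in the same way, so it lay inside the quartiles of the 671 genes by the former, though those quartiles rest on all 3 arrays. With the MSC mean as the base the shares of Onecut2 (9.09%), Nr1h4 (8.23%) and Nr5a2 (4.45%) at the probe sets that stand for the genes were higher, since their HD28 replicates 1 and 2 lie above MSC.

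**Figure D3:**
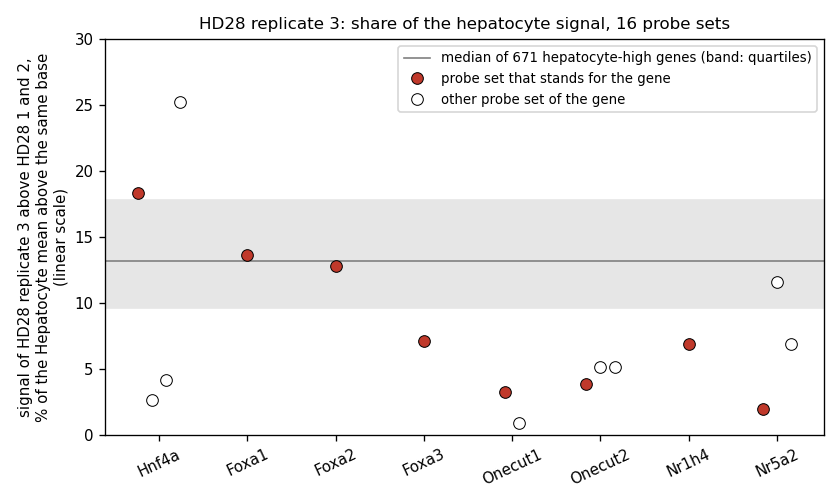
Signal of HD28 replicate 3 above the mean of HD28 replicates 1 and 2, as a percentage of the hepatocyte mean above the same base on the linear scale (y axis), for 16 probe sets of the 8 genes (x axis); red points stand for the gene and white points are its other probe sets. The line is the median of 671 hepatocyte-high genes (13.2%) and the band their quartiles (9.61% to 17.8%). Onecut1, Onecut2, Foxa3 and Nr1h4 lie under the band, and Hnf4a has points above and below it. Of these, Foxa3 reads 10.7% against Hepatocyte replicates 2 and 3 alone. The red points of Onecut1 and Nr5a2 and the lowest Hnf4a point do not meet the 3 log2 unit rule of the 671 genes.

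Other cell markers in the same array bear on these values. Albumin (Alb) had a share of 79.9%, transthyretin (Ttr) 62.6% and the Kupffer cell gene C1qb 10.6%. Alb was the highest and C1qb the lowest of their lists. Among markers that met the rule of 3 log2 units, 11 hepatocyte markers had shares of 19.8% to 79.9% (median 32.0%). Shares of 6 Kupffer cell and macrophage markers were 10.6% to 33.0% (median 14.8%), so the ranges overlapped. Of 12 hepatocyte markers 11 were at least 1 log2 unit above both other HD28 arrays, with a log2 summed level of 15.8 against 7.98 and 8.23. Of 12 Kupffer cell and macrophage markers 5 were (C1qa, C1qb, C1qc, Vsig4 and Cd5l), with a sum of 9.47 against 8.39 and 8.58, where the hepatocyte samples ranged from 10.2 to 12.1. So were 2 of 10 liver endothelial markers (Clec4g and Tek), 2 of 8 cholangiocyte markers (Krt19 and Aqp1), 2 of 8 stellate cell markers (Reln and Rgs5) and 0 of 12 stromal markers, whose sum was 15.8 against 16.1 and 15.9. Krt19 and Aqp1 were not higher in Hepatocyte than in MSC (-1.57 and -0.21). Both were lower in HD28 than in MSC, at -2.39 and -4.44 with all arrays and -2.79 and -5.38 without HD28 replicate 3. In that array Fkbp5 read 11.53 against 11.64 and 11.79 in HD28 replicates 1 and 2, and Col1a1 13.17 against 13.61 and 13.40. The actin probe sets, 3′ end minus 5′ end, differed by 0.94 here and by 0.29 and 0.23 in HD28 replicates 1 and 2. The part of these in the result was not tested.

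HD28 stayed far below the hepatocytes for every member. Of the 8 genes 8 were lower in HD28 than in Hepatocyte (11.2% of all genes), without overlap of arrays (29.1% of all genes in this direction). With all arrays the differences ran from -2.40 for Onecut1 (limma adjusted p = 0.00212) to -4.81 for Foxa3 (adjusted p = 8.58e-06), with a median of -3.55, and of -3.96 without HD28 replicate 3. For Hnf4a the difference was -4.71 ± 0.69 with all arrays and -5.89 without that array, which then was the largest of the 8. Without it Foxa1 went from -4.01 to -4.73 and Foxa3 to -5.50. Without Hepatocyte replicate 1 Onecut1 was at -1.49. At the probe-set level 16 of 17 were lower (9.41% of probe sets).

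dHD28 against HD28 asks what was lost when the cells went back to MSC medium. Of the 8 genes 2 fell, Onecut2 and Nr1h4 (4.19% of all genes fell), 2 had an unadjusted p under 0.05, and their arrays did not overlap between the groups (12.3% of all genes in this direction). Onecut2 read 3.47, 3.58 and 3.59 in dHD28 and fell by 1.15 ± 0.27 log2 units (limma adjusted p = 0.013). Nr1h4 read 4.10, 4.82 and 4.36 and fell by 1.07 ± 0.30 (adjusted p = 0.0288). The dHD28 arrays of Onecut2 lay inside the MSC range of 3.40 to 3.77, and dHD28 replicates 1 and 3 of Nr1h4 lay below its MSC range of 4.41 to 4.94. Of the probe sets 4 of 17 fell, the 3 of Onecut2 and that of Nr1h4 (3.43% of probe sets). Hnf4a, at -1.24 ± 0.69 (adjusted p = 0.292), did not pass, and its difference was -0.05 without HD28 replicate 3.

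These falls share their HD28 arrays with the comparison above, and their calls changed when single arrays were left out. Leaving out HD28 replicate 3 moved the size more for Nr1h4 than for Onecut2. Without HD28 replicate 3, 0 of 8 genes passed by limma (3.44% of all genes fell then), with Onecut2 at -1.01 (adjusted p = 0.0529) and Nr1h4 at -0.66 (adjusted p = 0.0819), and 1 probe set did, 1460044_at at -1.05 (adjusted p = 0.0358). Without dHD28 replicate 1, 0 passed (Onecut2 at -1.11, adjusted p = 0.0505, and Nr1h4 at -0.91, adjusted p = 0.119). Without HD28 replicate 1 Onecut2 did not pass, at a difference of -1.0048 (adjusted p = 0.053), and without dHD28 replicate 3 Nr1h4 did not, at -1.04 (adjusted p = 0.0632). Within the low spike-in class, 2 arrays against 2, Onecut2 differed by -1.44 and Nr1h4 by -1.55, and within the high class, 1 against 1, by -0.55 and -0.12. The low class again holds HD28 replicates 1 and 3 and the high class replicate 2, so spike-in class and array are not separated here.

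**Figure D4:**
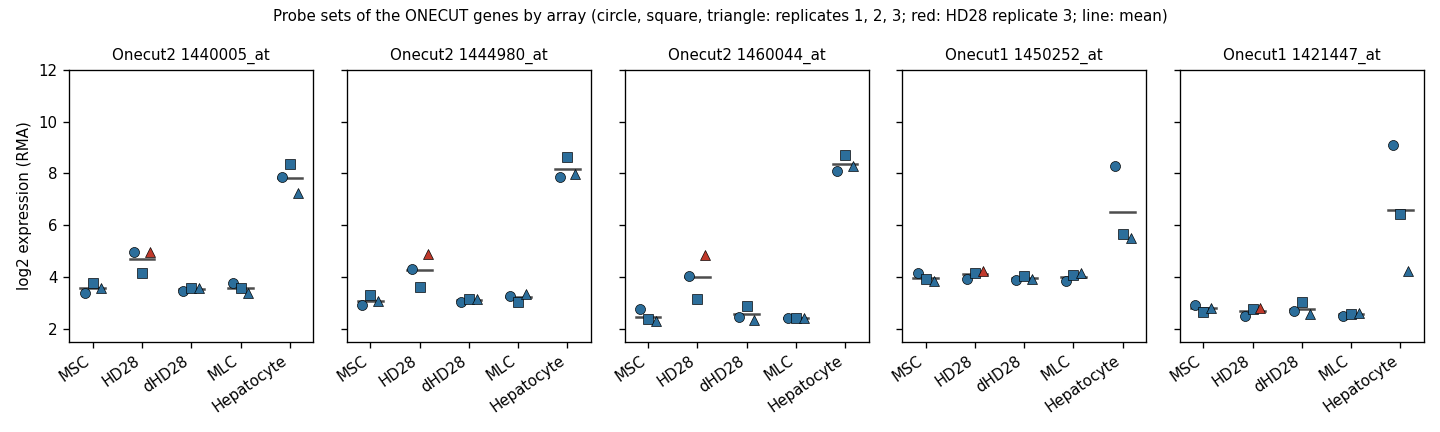
Log2 expression (RMA, y axis) of the 3 Onecut2 and 2 Onecut1 probe sets by group (x axis). Points are single arrays (circle, square and triangle for replicates 1, 2 and 3), lines are means of 3, and HD28 replicate 3 is red. In the 3 Onecut2 panels every HD28 array is above every MSC, dHD28 and MLC array, and in the Onecut1 panels the Hepatocyte arrays spread over more than 2 log2 units.

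The dHD28 and MLC samples were not told apart from MSC at these genes. In dHD28 against MSC 0 of 8 genes passed by limma, 0 had an unadjusted p under 0.05, and 0% of all genes passed. Log2 differences ran from -0.24 (Hnf4a) to 0.29 (Foxa2), and the widest 95% interval ran from -1.73 to 1.24. Foxa2 alone did not overlap, at 4.49, 4.83 and 4.57 in dHD28 above the MSC maximum of 4.49 (1.44% of all genes in this direction), with an adjusted p of 1. In MLC against MSC 0 of 8 passed by limma, 0 had an unadjusted p under 0.05, and 0% of all genes passed. There differences ran from -0.13 (Hnf4a) to 0.19 (Nr5a2), and the widest interval, again that of Hnf4a, from -1.62 to 1.36. Differences inside the interval of a gene are not excluded by these arrays. The Hnf4a intervals are wide in part because the model takes its spread from all 5 groups, HD28 replicate 3 included. Those of the other members were narrower.

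MLC against Hepatocyte asks how much of the hepatocyte level was lost in the cells derived from hepatocytes. Of the 8 genes 8 were lower in MLC (12% of all genes), with no overlap of arrays (28.3% of all genes in this direction). Differences ran from -2.48 for Onecut1 (limma adjusted p = 0.00143, and -1.58 without Hepatocyte replicate 1) to -5.83 for Hnf4a (adjusted p = 1.2e-05), with a median of -4.38, and 16 of 17 probe sets were lower (10.2% of probe sets). Nr1h4 read 4.54, 4.68 and 4.39 in MLC, and Foxa3 read 2.92, 3.29 and 3.22. These values overlapped those of MSC. By a limma contrast, the change from Hepatocyte to MLC was larger than that from HD28 to dHD28 for 8 of 8 genes. The contrast was chosen after the data were seen, and 9.96% of all genes were lower in it. Since MLC and dHD28 levels overlapped, it largely repeats HD28 minus Hepatocyte.

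The hepatocyte arrays were themselves uneven for some members. Onecut1 was the widest, and its 2 probe sets were the 2 of 17 that spanned at least 2 log2 units over the 3 arrays (2.25% of all probe sets). Replicate 1 was highest in both, and it was at least 0.5 log2 units above the mean of replicates 2 and 3 in 8 of the 16 probe sets called higher in Hepatocyte than in MSC (16.9% of all 3533 such probe sets). Those 8 were the 2 of Onecut1, 2 of Hnf4a, 2 of Nr5a2, and those of Foxa2 and Foxa3. Without Hepatocyte replicate 1 all 8 genes were still called against MSC, with Onecut1 at 1.61 in place of 2.52 (limma adjusted p = 5.39e-06).

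Marker levels differed between these arrays as well. The log2 sum of the 12 hepatocyte markers was 16.9, 16.9 and 17.0 in Hepatocyte replicates 1, 2 and 3. The Kupffer cell and macrophage sum was 10.2, 11.7 and 12.1, the liver endothelial sum 10.1, 11.2 and 11.6, and the stromal sum 9.03, 11.6 and 10.4, so that replicate 1 was lowest in each of these 3. The actin difference, 3′ end minus 5′ end, was 0.66, 1.24 and 1.23, and only replicate 1 was of the high spike-in class. Their part in the spread of Onecut1 was not tested.

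Genes with the profile most like each member were taken over all 15 arrays, as those with the smallest root mean square difference of centred log2 values (0.22 to 0.36). For Hnf4a they were Agmat, Mbl1 and Cyp4f15, for Foxa1 Gldc, Baat and Klb, for Foxa2 Nr1i3, Atp9a and Cldn3, and for Foxa3 Timd2, Afm and F11. For Onecut1 they were Sult5a1, Cyp2c39 and Ces2b, for Onecut2 Esrp2, Rnf125 and Lin7a, for Nr1h4 Hsd3b2, Lin7a and Ldhd, and for Nr5a2 Glyctk, C2cd2 and Arhgap26. No member was among the 3 nearest of another, and the closest pair of members was Foxa2 and Nr5a2, at 0.38. The 15 arrays share the step from Hepatocyte to the rest.

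Other liver transcription factors were mostly high in hepatocytes, and 2 of them rose in HD28. Of 24 measured, 16 were higher in Hepatocyte than in MSC (11.8% of all genes were). The median difference of the 24 was 2.18 log2 units against 0.04 over all genes. The largest were Hhex (5.95), Klf15 (5.80), Ppara (5.25), the receptor for fatty acids, and Creb3l3 (4.45). In HD28, 2 of 24 rose over MSC (3.24% of all genes did), and both also rose without HD28 replicate 3. They were Klf15, a glucocorticoid-inducible factor of gluconeogenesis (3.05 ± 0.58, limma adjusted p = 0.00472, and 2.61 without that array), and Nr1h3, the oxysterol receptor LXRα (1.57 ± 0.20, adjusted p = 0.000299, and 1.65 without it). From HD28 to dHD28 both fell, by 3.47 and 1.62.

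Among relatives of the members within their families, 2 of 13 measured were higher in Hepatocyte than in MSC (11.8% of all genes were), Nr1h3 (3.35) and the forkhead gene Foxo1 (2.17), and 6 were lower (18.3% of all genes were). The lower ones were led by the mesenchymal forkhead genes Foxc1 (-6.14), Foxc2 (-4.16) and Foxf2 (-3.14), opposite in sign to the FOXA genes of the same domain family. The paralogues Hnf4g (0.41, limma adjusted p = 0.125), Onecut3 (0.44, adjusted p = 0.0907) and Nr5a1 (0.04, adjusted p = 0.884) did not pass; they were named after their values were seen. In HD28, 3 of 13 rose over MSC (Nr1h3, Foxo1 and Foxo3, where 3.24% of all genes rose). In the same comparison 1 fell (Foxc2, where 3.52% of all genes fell). Without HD28 replicate 3 Nr1h3 was the 1 of 13 that passed, while the sizes of the others moved little: Foxo1 went from 1.04 to 1.00 (limma adjusted p = 0.0505), Foxo3 from 1.04 to 0.99 and Foxc2 from -1.21 to -1.22. Foxo1 and Foxo3 were named after their values were seen.

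Most known targets of the members that were measured were higher in Hepatocyte than in MSC, which 11.8% of all genes were. There were exceptions among the FOXA and ONECUT, FXR and LRH-1 targets. Of 17 measured HNF4A targets, 17 were higher in Hepatocyte than in MSC, led by the urea cycle gene Otc (9.86), the apolipoprotein genes Apoc3 (9.69) and Apoa2 (9.20) and the clotting factor F9 (8.58), with a median of 8.06. In HD28, 1 of 17 rose over MSC (3.24% of all genes did), F7 (1.65, limma adjusted p = 0.0154). Without HD28 replicate 3, 0 of 17 rose by limma, and F7 was at 1.20 (adjusted p = 0.053). The median of the 17 in that comparison was 1.73 with all arrays and -0.16 without that array. F7 then fell from HD28 to dHD28 by 2.03 (adjusted p = 0.00375), and by 1.59 without HD28 replicate 3 (adjusted p = 0.0116). It was named after its values were seen.

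Of 13 targets of FOXA and ONECUT factors, 11 were higher in Hepatocyte and 2 did not pass. The higher ones were led by Alb (10.22), the glucose transporter Slc2a2 (9.63), Serpina1b (9.60) and Cps1 (9.41). In HD28, 0 of these 13 rose over MSC by limma, and the transferrin receptor gene Tfrc fell at the fold limit (adjusted p = 0.0302, and by 1.16 without HD28 replicate 3). Of 14 FXR targets 9 were higher in Hepatocyte and 4 did not pass, led by Ugt2b34 (9.17), the bile acid ligase Slc27a5 (8.43), Apoc2 (7.30) and Kng1 (7.14), and Vldlr was lower (-1.49). Vldlr was the 1 of 14 that rose in HD28, where 3.24% of all genes rose over MSC. Its rise was 2.46 ± 0.56 (limma adjusted p = 0.0126), and 2.26 without HD28 replicate 3. Of 11 LRH-1 targets 8 were higher in Hepatocyte, led by Apoa1 (8.39), the sterol transporter Abcg5 (6.27), Cyp8b1 (5.83) and Agxt2 (5.62), 3 did not pass, and 0 of 11 changed in HD28 by limma. Tfrc and Vldlr were named after their values were seen, and several targets stand on more than 1 list.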

How the data were processed

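Per the submitters' processing notes, the authors made the deposited log2 values by RMA, which corrects background, normalizes the arrays by quantiles and summarises probes. No source gives the base of the logarithm, and base 2 was assumed because values lie between 1.32 and 14.1. The precision is limited by the number of arrays. The table holds no detection calls.

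A model of 5 group means was fitted to 15 arrays with limma 3.58.1 (lmFit, eBayes) in R 4.3.3, with 10 residual degrees of freedom. It was fitted to the 18193 genes, each by its probe set of highest mean, and again to 34945 probe sets with exactly 1 symbol in the platform annotation (932 had several, 9160 none). For 7 comparisons, p was two-sided and adjusted by Benjamini-Hochberg over all features. A call needs at least a 2-fold difference with adjusted p below 0.05. Errors are SE, and intervals are 95% intervals, of the model, whose spread per gene is taken over all 5 groups. Members and lists were chosen with earlier results of these data known.

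Named are all members and their probe sets, per other list up to 4 changed genes of largest change in Hepatocyte minus MSC, the 3 genes nearest to each member, and Alb, Ttr, Col1a1, Fkbp5 and C1qb as level controls. Marker sums are log2 of summed linear signals. The replicate numbers correlated in deviations over 0.1 in each pair only between dHD28 and HD28 (0.32, 0.28 and 0.12), so they may pair those samples. No 2 arrays of a group held identical values. Alternatives were other choices of probe sets, filters, scalings, variance models, weights, blocks by replicate number and by spike-in class (6 arrays high, 9 low), and each array left out. The model was tested on simulated data.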

Additional observations from a re-analysis of the deposited data

Results flagged for a closer look

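The change from Hepatocyte to MLC and the change from HD28 to dHD28 were set against each other in a contrast of the same model, chosen after the data were seen. It differed for all 8 genes at the same thresholds (9.96% of all genes were lower in it). The contrast, in log2 units, was -4.60 for Hnf4a, -4.31 for Foxa1, -3.33 for Foxa2 and -4.83 for Foxa3. It was -2.32 for Onecut1, -3.09 for Onecut2, -3.82 for Nr1h4 and -2.66 for Nr5a2. The limma adjusted p ran from 3.09e-05 (Nr1h4) to 0.0298 (Onecut1), and without HD28 replicate 3 from 2.39e-08 (Hnf4a) to 0.0415 (Onecut1). The hepatocytes started from higher levels than HD28 for every member, as given above, while MLC and dHD28 ended at levels that overlapped. The contrast therefore largely repeats HD28 minus Hepatocyte, which was -4.71 for Hnf4a and -3.12 for Onecut2.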

How the results depend on the processing

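For the 8 genes, the counts called in Hepatocyte minus MSC, HD28 minus Hepatocyte, MLC minus Hepatocyte, dHD28 minus MSC and MLC minus MSC were the same in all 28 alternatives, and the F test count in all 26. The counts in HD28 minus MSC (1) and dHD28 minus HD28 (2) were not. With only the arrays compared in the fit they were 0 and 1, and with quantile normalization again the second was 1. Blocking on spike-in class while omitting HD28 replicate 3 gave 1 for the second. Leaving out each array in turn gave 0 to 2 for each. No member changed sign where it was called. With the replicate number as a block, the counts were 8, 1, 8, 2, 0, 8 and 0 in the order Hepatocyte minus MSC, HD28 minus MSC, HD28 minus Hepatocyte, dHD28 minus HD28, dHD28 minus MSC, MLC minus Hepatocyte and MLC minus MSC, so it changed no count, and in dHD28 minus HD28 it called 5 probe sets where the fit without it called 4. The fifth was Nr5a2 1456521_at (-1.41, limma adjusted p = 0.0489). Centring on housekeeping genes moved the median of all genes by 0.67 in Hepatocyte minus MSC and by 0.13 in HD28 minus MSC. Foxa1, Foxa3 and some probe sets of other members lay under the lower quartile of the arrays in MSC, dHD28 and MLC. With 3 arrays a group, small changes of the 8 genes are below what can be measured.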

Other observations

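Some values were repeated exactly between arrays, which touches 3 of the 17 probe sets (17.6%) and 33.6% of all 34945. Onecut1 1450252_at read 4.15 in MSC replicate 1, HD28 replicate 2 and MLC replicate 3. Hnf4a 1427001_s_at read 5.30 in dHD28 replicate 3 and MLC replicate 3. Nr5a2 1449707_at read 3.39 in Hepatocyte replicate 2 and MLC replicate 3. These arrays were otherwise not identical to each other.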
